A study of Mus musculus with 9 samples.

Results

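Splenic type 2 conventional dendritic cells (cDC2s) were examined for the RNA of 7 chemokine receptors, Ccr7, Ccr1, Ccr2, Ccr6, Cxcr4, Cxcr3 and Cx3cr1, which were taken by name. All 7 were listed in the deposited table of 14209 genes, and all 7 were among the 12043 genes that passed the filter on low counts. The cells came from the spleens of C57BL/6 mice in 3 genotypes with 3 RNA-seq libraries each. The Gα13-deficient group carried floxed Gna13 deleted by a Cre recombinase under the CD11c promoter, which is active in dendritic cells but also in some macrophages and monocytes. The CD97-deficient group lacked Adgre5, which the table names Cd97, and the wild-type (WT) group had neither deletion. The labels give no ages, no sorting scheme and no Cre status of the WT mice, and their genotype text for the Gα13-deficient libraries also names Adgre5 deficiency.

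Chemokine receptors are seven-helix receptors that couple mainly to Gi proteins, and the released Gβγ dimers drive cell polarity and migration up a chemokine gradient. Gα13 belongs to another G protein family and activates RhoA, while CD97 is a leukocyte receptor of the adhesion GPCR family. In splenic cDC2s, CCR7 carries maturing cells into the T cell zone. CCR6 and CXCR4 guide leukocyte positioning and retention, CCR1, CCR2 and CX3CR1 are best known from monocytes, and CXCR3 from effector T cells.

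The 7 receptors share the DRY motif at the inner end of a membrane helix, the site through which such receptors engage G proteins. The coding stretch around it is shown because it is the part of these transcripts most directly tied to the G protein step. Each line runs 5′ to 3′ on the coding strand of a GENCODE M21 transcript (GRCm38), with the aspartate, arginine and tyrosine codons in capitals.
Ccr7: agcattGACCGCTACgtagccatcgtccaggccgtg
Ccr1: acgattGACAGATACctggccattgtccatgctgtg
Ccr2: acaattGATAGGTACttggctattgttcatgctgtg
Ccr6: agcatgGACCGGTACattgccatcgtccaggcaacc
Cxcr4: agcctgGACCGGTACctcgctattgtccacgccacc
Cxcr3: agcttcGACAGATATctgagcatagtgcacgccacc
Cx3cr1: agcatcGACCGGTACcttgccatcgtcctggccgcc
The 7 genes spelled these codons in 5 different ways, and Ccr6, Cxcr4 and Cx3cr1 shared 1 spelling. Over the 36 bases, Ccr6 and Cx3cr1 were the closest pair with 31 bases in common, and Ccr2 and Cxcr3 the most distant with 18. Ccr7 had between 21 (Cxcr3) and 29 (Cx3cr1) bases in common with the others.

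Library totals ran from 5679946 to 13904646 counts, and 3 counts in a library corresponded to 0.216 to 0.528 CPM, a count scaled to a common library size. Expression of Gna13 was lower in Gα13-deficient than in WT libraries by a log2 fold change of -1.09 ± 0.11 (SE, edgeR adjusted p = 6.84e-05), and reads outside the deleted exons could remain. For Cd97 the log2 fold change was -0.89 ± 0.28 in CD97-deficient libraries (edgeR adjusted p = 0.105) and -0.13 ± 0.28 in Gα13-deficient libraries (edgeR adjusted p = 0.816), each against WT. The 10 listed cDC2 markers were present in all libraries. They summed to 9000 to 10104 CPM in Gα13-deficient, 8849 to 9027 CPM in CD97-deficient and 9270 to 10517 CPM in WT libraries. Of these sums, H2-Ab1 alone made up 4798 to 5786 CPM, so they do not by themselves check cDC2 identity. By Xist and Y-linked transcripts, 1 of 3 Gα13-deficient, 3 of 3 CD97-deficient and 1 of 3 WT libraries had a female pattern. The labels do not state whether replicates were separate mice, so the p-values reflect variation among the 9 libraries, part of which may be technical.

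Values below are CPM scaled by TMM normalization (TMM CPM), and log2 fold changes are from edgeR's quasi-likelihood fit to all 9 libraries, adjusted by Benjamini-Hochberg over 12043 genes with a threshold of 0.05. In Gα13-deficient against WT cells, 2 of the 7 receptors passed the test, Ccr7 lower and Cx3cr1 higher, where 11.0% of all genes tested passed (5.74% higher and 5.24% lower). In CD97-deficient against WT cells, 1 of 7 passed, Ccr7 lower, where 8.53% of all genes tested passed (4.84% higher and 3.69% lower). In Gα13-deficient against CD97-deficient cells, 0 of 7 passed, where 0.0498% of all genes tested passed (0.0332% higher and 0.0166% lower). By edgeR, 1 receptor (Cxcr4) and 722 genes had an unadjusted p under 0.05 in that comparison, and DESeq2 called 54 genes and 0 receptors. The median log2 fold change of the 7 receptors was 0.62, 0.22 and 0.61 in these 3 comparisons, against -0.01, -0.00 and -0.00 over all genes tested. The 2 comparisons with WT use the same 3 WT libraries, and their results are not independent of each other.

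**Figure D1:**
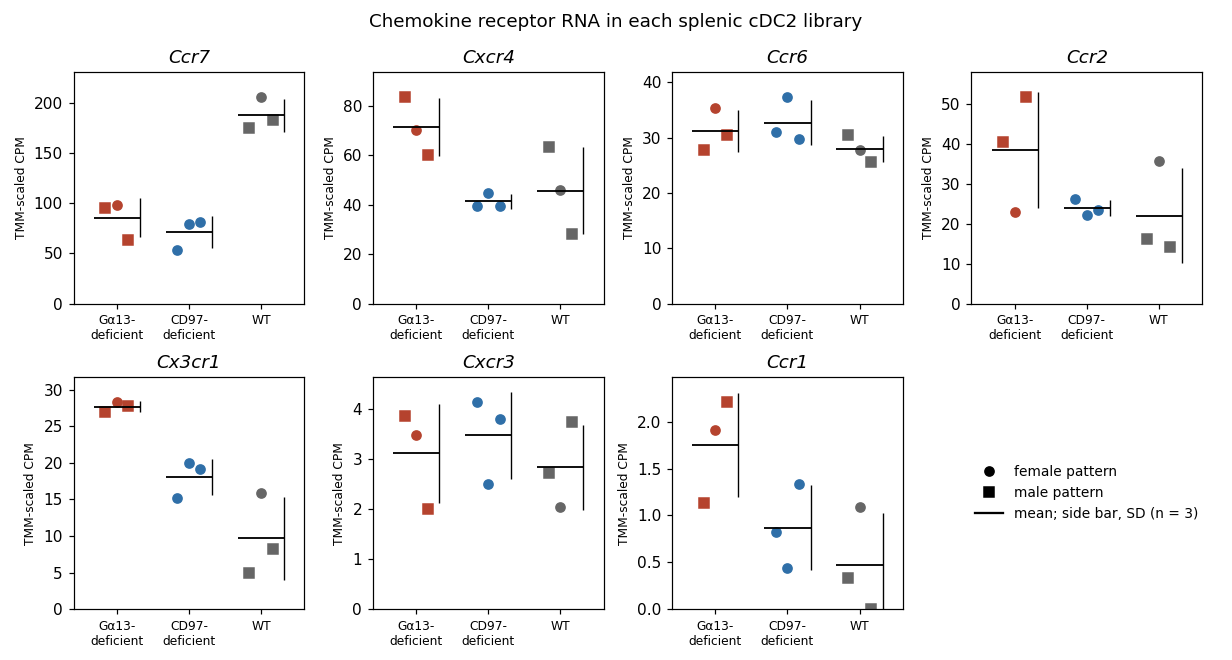
Expression of the 7 receptors in TMM CPM (vertical axes, linear, from 0) in each of the 3 Gα13-deficient, 3 CD97-deficient and 3 WT libraries. Circles have a female and squares a male expression pattern, horizontal lines are means and side bars SDs; the Ccr7 values of both mutants lie under all WT values, and the Cx3cr1 values of the Gα13-deficient libraries lie above all others.

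Ccr7, the receptor for CCL19 and CCL21 that takes dendritic cells to T cell areas, was the only receptor of the 7 that was lower in both mutants. It lies on chromosome 11 (GRCm38 chr11:99144196-99155077, minus strand). Gα13-deficient replicates 1 to 3 had 95.3, 98.2 and 63.3 TMM CPM, CD97-deficient replicates 53.2, 79.6 and 81.1, and WT replicates 174, 206 and 182. Both mutant groups lay fully under the WT group, while their own ranges overlapped. In bulk RNA, fewer Ccr7-expressing cells and less Ccr7 RNA per cell cannot be told apart.

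In Gα13-deficient cells Ccr7 averaged 85.6 ± 19.4 TMM CPM, against 187 ± 16.4 in WT cells (SD, n = 3 each). The log2 fold change was -1.14 ± 0.19 (SE, edgeR adjusted p = 0.00534), or 2.20-fold lower. In CD97-deficient cells it averaged 71.3 ± 15.7 TMM CPM (SD, n = 3), with a log2 fold change against WT of -1.40 ± 0.20 (SE, edgeR adjusted p = 0.00283). The direct difference, Gα13-deficient over CD97-deficient, was 0.26 ± 0.20 on the log2 scale with a 95% interval of -0.18 to 0.69 (edgeR adjusted p = 0.934). Leaving out any 1 of the 9 libraries kept Ccr7 under the threshold in both comparisons with WT.

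Among libraries of 1 sex pattern, the mutants were again below WT. The female-pattern libraries held 98.2 TMM CPM of Ccr7 in the Gα13-deficient one, 53.2 to 81.1 in the 3 CD97-deficient ones and 206 in the WT one. The male-pattern libraries held 63.3 and 95.3 TMM CPM in the 2 Gα13-deficient ones and 174 and 182 in the 2 WT ones. With female-pattern libraries alone, the Gα13-deficient difference was -1.06 on the log2 scale, from 1 library a group. The CD97-deficient difference was -1.53, against 1 WT library. Male-pattern libraries alone gave -1.18 in Gα13-deficient cells (edgeR adjusted p = 0.00536). With the sex pattern as a term over all 9 libraries, Ccr7 was at -1.14 in Gα13-deficient cells (edgeR adjusted p = 0.00362). In CD97-deficient cells this fit gave -1.56 (edgeR adjusted p = 0.0106). No CD97-deficient library had a male pattern, so that value takes the sex term from the other groups.

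Cx3cr1, the receptor for fractalkine and typical of patrolling monocytes, was the only receptor of the 7 that was higher past the threshold, in Gα13-deficient cells. The gene lies on chromosome 9 (GRCm38 chr9:119901616-120069879, minus strand), and its exons overlap those of Gm33858 on the other strand, which counts made without strand could not separate. It had 26.9, 28.3 and 27.8 TMM CPM in Gα13-deficient, 15.3, 19.9 and 19.1 in CD97-deficient and 4.91, 15.9 and 8.15 in WT replicates. The Gα13-deficient libraries were above all others and close together. WT replicate 2 reached the range of the CD97-deficient group.

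Cx3cr1 averaged 27.7 ± 0.72 TMM CPM in Gα13-deficient and 9.65 ± 5.65 in WT cells (SD, n = 3 each). This corresponded to a 2.89-fold difference and 1.53 ± 0.32 on the log2 scale (SE, edgeR adjusted p = 0.0122). Without WT replicate 3 the adjusted p was 0.0560 with a log2 fold change of 1.44, and 4 receptors were called without WT replicate 2, against 1 without WT replicate 3. In CD97-deficient cells Cx3cr1 averaged 18.1 ± 2.49 TMM CPM (SD, n = 3), and its log2 fold change against WT was 0.91 ± 0.32 (SE, edgeR adjusted p = 0.110). That comparison did pass without WT replicate 2, at 1.50 on the log2 scale with an edgeR adjusted p of 0.000841. Directly, Gα13-deficient over CD97-deficient, the log2 difference was 0.61 ± 0.30 with a 95% interval of -0.05 to 1.28 (edgeR adjusted p = 0.861), although these groups did not overlap.

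In WT cells the only female-pattern library, replicate 2, had the highest Cx3cr1. It also had the highest WT marker sums: 1372 CPM against 612 and 429 for macrophages, and 1604 against 1058 and 1004 for monocytes. Sex pattern and other-cell content cannot be told apart in that library. The female-pattern libraries held 28.3 TMM CPM of Cx3cr1 in the Gα13-deficient, 15.3 to 19.9 in the CD97-deficient and 15.9 in the WT group. The male-pattern ones held 26.9 and 27.8 in the Gα13-deficient and 4.91 and 8.15 in the WT group. Among female-pattern libraries alone, the log2 fold change against WT was 0.84 in Gα13-deficient cells (edgeR adjusted p = 0.197) and 0.19 in CD97-deficient cells (edgeR adjusted p = 0.800). These p-values rest on 1 Gα13-deficient and 1 WT library, each assumed to vary like the 3 CD97-deficient ones. With the sex pattern as a term over all 9 libraries it was 1.64 in Gα13-deficient cells (edgeR adjusted p = 0.00185) and 0.57 in CD97-deficient cells (edgeR adjusted p = 0.422).

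Summed monocyte markers were higher in all Gα13-deficient libraries than in the other 6. The 10 markers other than Cx3cr1 and Ccr2 summed to 1637 to 2138 CPM of the library total in Gα13-deficient, 1232 to 1593 in CD97-deficient and 1004 to 1604 in WT libraries. Lyz2 and S100a4 made up most of the Gα13-deficient sums. Lyz2 had 603 to 1032 CPM in Gα13-deficient, 463 to 578 in CD97-deficient and 307 to 647 in WT libraries. S100a4 had 459 to 514, 440 to 482 and 313 to 449 CPM in the same order. On the mean log2 level of the 10 markers the groups overlapped, from 0.32 in Gα13-deficient and up to 0.34 in CD97-deficient and 0.37 in WT libraries. Within the CD97-deficient group the order was opposite to that of Cx3cr1: replicate 1 had the highest sum and the lowest Cx3cr1, and replicate 2 the lowest sum and the highest Cx3cr1. Of the 11 tested monocyte markers, 2 were called higher in Gα13-deficient than in WT cells, Cx3cr1 itself and S100a4, where 5.74% of all genes were called higher, and 0 were called lower. Ly6c2, which defines classical monocytes, had 13.9, 3.87 and 9.49 CPM in Gα13-deficient, 2.86, 0.735 and 2.42 in CD97-deficient and 1.15, 4.40 and 1.02 in WT replicates, while Ly6c1 stayed under 1 CPM and was listed at 0 in CD97-deficient and WT replicate 2. The median log2 fold change of the 11 tested markers, Gα13-deficient over WT cells, was 0.82. Ace was not called, but its Gα13-deficient values lay above those of the other 6 libraries. It had 48.7 to 75.6 CPM in Gα13-deficient, up to 34.5 in CD97-deficient and 17.5 to 40.0 in WT libraries. Not all markers were higher: the log2 fold change of Gα13-deficient over WT cells was -0.22 for Treml4 (edgeR adjusted p = 0.338) and -0.12 for Cd14 (edgeR adjusted p = 0.924). With the mean log2 level of the 10 markers as a term, the Cx3cr1 difference was 1.30 on the log2 scale (edgeR adjusted p = 0.0935) and that of Ccr7 -1.10 (edgeR adjusted p = 0.0573). The 12 macrophage markers summed to 604 to 972 CPM in Gα13-deficient, 484 to 1799 in CD97-deficient and 429 to 1372 in WT libraries, with overlapping ranges. The 6 plasmacytoid dendritic cell markers summed to 210 to 319 CPM in Gα13-deficient, 170 to 194 in CD97-deficient and 153 to 203 in WT libraries, so that the Gα13-deficient sums stood apart here too. Tcf4 alone made up 134 to 161 CPM of the Gα13-deficient and 104 to 121 CPM of the WT sums. On the mean log2 level, the Gα13-deficient libraries (0.07 to 1.15) overlapped the WT ones (-0.46 to 0.29) but not the CD97-deficient ones (-1.02 to -0.0009). The 6 cDC1 markers summed to 164 to 233 CPM in Gα13-deficient and 77.8 to 165 in WT libraries, with ranges that just overlapped. The part of other cells in the Cx3cr1 result was not tested beyond these values.

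**Figure D2:**
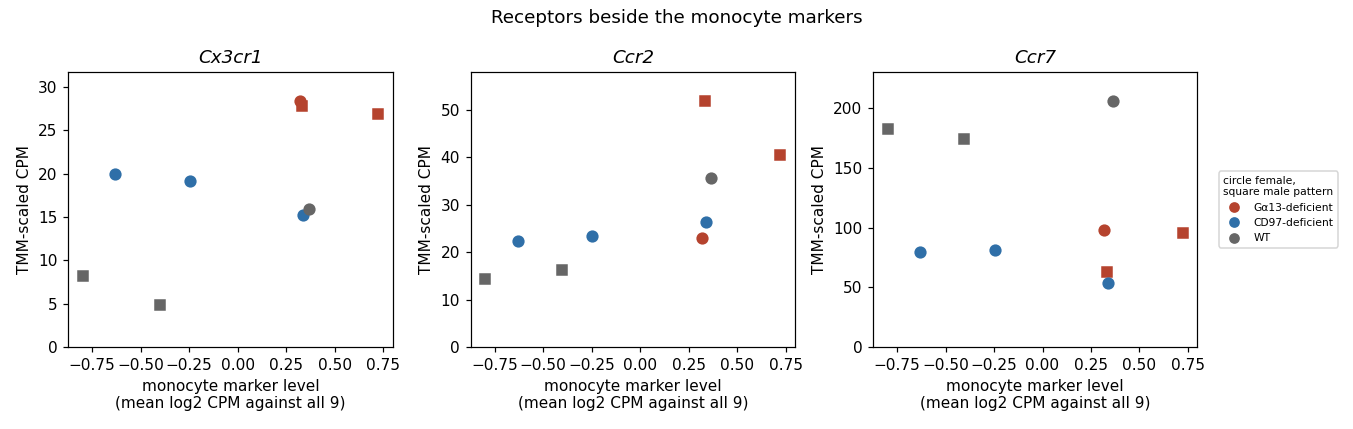
Cx3cr1, Ccr2 and Ccr7 in TMM CPM (vertical axes, from 0) against the mean log2 level of 10 monocyte markers relative to all 9 libraries (horizontal axes), 1 point per library, circles female and squares male pattern. The Gα13-deficient libraries had marker levels of 0.32 to 0.72, the CD97-deficient ones -0.63 to 0.34 and the WT ones -0.80 to 0.37, and WT replicate 2 lay at the high end of its group.

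Ccr2, the receptor for CCL2 that brings monocytes out of the bone marrow, was not called in any of the 3 comparisons over the 9 libraries. It had 40.4, 22.9 and 51.8 TMM CPM in Gα13-deficient, 26.3, 22.3 and 23.5 in CD97-deficient and 16.1, 35.6 and 14.3 in WT replicates. The ranges overlapped in all 3 comparisons. The log2 fold change was 0.82 ± 0.40 in Gα13-deficient cells (SE, edgeR adjusted p = 0.246) and 0.12 ± 0.40 in CD97-deficient cells (SE, edgeR adjusted p = 0.887), each against WT, and 0.69 ± 0.39 for Gα13-deficient over CD97-deficient cells (SE, edgeR adjusted p = 0.889). With the monocyte marker level as a term, the Gα13-deficient value against WT was 0.35 (edgeR adjusted p = 0.678).

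The direction of Ccr2 depended on which libraries were compared. Between male-pattern libraries the 2 Gα13-deficient ones had 40.4 and 51.8 TMM CPM and the 2 WT ones 16.1 and 14.3, a log2 fold change of 1.60 (edgeR adjusted p = 0.00196). Between female-pattern libraries the Gα13-deficient one had 22.9 and the WT one 35.6 TMM CPM, a log2 fold change of -0.63 (edgeR adjusted p = 0.254), with each lone library assumed to vary like the CD97-deficient ones. Without WT replicate 2 the difference over the remaining libraries was 1.35 on the log2 scale (edgeR adjusted p = 0.0118). Whether the effect differs by sex pattern was not tested. Ccr2 lies on chromosome 9 (GRCm38 chr9:124101950-124113557, plus strand). Its longest transcript has 5679 windows of 50 bases, with 209 matches to other genes, counted once per gene matched.

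Ccr1, a receptor for CCL3 and CCL5 typical of monocytes and neutrophils, was near the detection limit. It had 10, 11 and 31 counts in Gα13-deficient, 7, 3 and 12 in CD97-deficient and 3, 8 and 0 in WT replicates. Scaled, these were 1.14, 1.91 and 2.21 TMM CPM in Gα13-deficient, 0.828, 0.440 and 1.34 in CD97-deficient and 0.327, 1.09 and 0 in WT replicates. The lowest Gα13-deficient library was just above the highest WT library. The log2 fold change was 1.83 ± 0.73 in Gα13-deficient cells (SE, edgeR adjusted p = 0.126) and 0.85 ± 0.79 in CD97-deficient cells (SE, edgeR adjusted p = 0.547), each against WT, and 0.98 ± 0.66 for Gα13-deficient over CD97-deficient cells (SE, edgeR adjusted p = 0.910). Without WT replicate 2, the Gα13-deficient value was 3.09 (edgeR adjusted p = 0.0387), and with the monocyte marker level as a term it was 1.25 (edgeR adjusted p = 0.492). Its gene is on chromosome 9 (GRCm38 chr9:123962124-123968692, minus strand), in the same receptor cluster as Ccr2.

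Cxcr4, the receptor for CXCL12 that holds leukocytes in bone marrow and stroma-rich niches, separated the mutants without overlap. The values were 83.6, 70.1 and 60.1 TMM CPM in Gα13-deficient, 39.5, 44.8 and 39.7 in CD97-deficient and 63.2, 45.9 and 28.0 in WT replicates. All Gα13-deficient libraries were above all CD97-deficient ones, while the WT group spread over both. Gα13-deficient over CD97-deficient, the log2 difference was 0.78 ± 0.25 (SE, edgeR adjusted p = 0.669), so it did not pass the threshold over all genes. A fit to these 6 libraries alone gave 0.78 with an edgeR adjusted p of 0.00839.

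Against WT, Cxcr4 had a log2 fold change of 0.62 ± 0.25 in Gα13-deficient cells (SE, edgeR adjusted p = 0.151) and -0.16 ± 0.25 in CD97-deficient cells (SE, edgeR adjusted p = 0.743). With the replicate number as a block, the Gα13-deficient value was 0.69 ± 0.14 (SE, edgeR adjusted p = 0.0118), and same-numbered libraries of these 2 groups deviated together, with replicate 2 the female-pattern library in both. Without WT replicate 1, which had the highest WT value, it was 0.94 (edgeR adjusted p = 0.0150), and without WT replicate 3, which had the lowest, 0.38 (edgeR adjusted p = 0.170). With the monocyte marker level as a term it was 0.48 (edgeR adjusted p = 0.528). DESeq2 gave 0.63 with an adjusted p of 0.0362. The gene lies on chromosome 1 (GRCm38 chr1:128588199-128592293, minus strand).

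Ccr6, the receptor for CCL20, had overlapping ranges in the 3 genotypes. It had 27.8, 35.3 and 30.4 TMM CPM in Gα13-deficient, 31.0, 37.4 and 29.7 in CD97-deficient and 30.4, 27.7 and 25.6 in WT replicates. The log2 fold change against WT was 0.15 ± 0.14 in Gα13-deficient cells, with a 95% interval of -0.15 to 0.45 (edgeR adjusted p = 0.547). In CD97-deficient cells it was 0.22 ± 0.14, with an interval of -0.08 to 0.52 (edgeR adjusted p = 0.361). Directly, the mutants differed by -0.07 ± 0.14 on the log2 scale, Gα13-deficient over CD97-deficient (edgeR adjusted p = 0.975). Ccr6 lies on chromosome 17 (GRCm38 chr17:8236043-8257141, plus strand).

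Cxcr3, the receptor for the interferon-induced chemokines CXCL9 and CXCL10, was low in all groups. It had 3.86, 3.48 and 2.0 TMM CPM in Gα13-deficient, 4.14, 2.49 and 3.80 in CD97-deficient and 2.73, 2.04 and 3.74 in WT replicates, from 15 to 35 counts a library. The 3 ranges overlapped. The log2 fold change against WT was 0.12 ± 0.39 in Gα13-deficient cells (95% interval -0.72 to 0.96) and 0.32 ± 0.39 in CD97-deficient cells (95% interval -0.52 to 1.15), with edgeR adjusted p of 0.884 and 0.659. Between the mutants it was -0.20 ± 0.38, Gα13-deficient over CD97-deficient (SE, edgeR adjusted p = 0.975). The gene is on the X chromosome (GRCm38 chrX:101731535-101734269, minus strand).

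**Figure D3:**
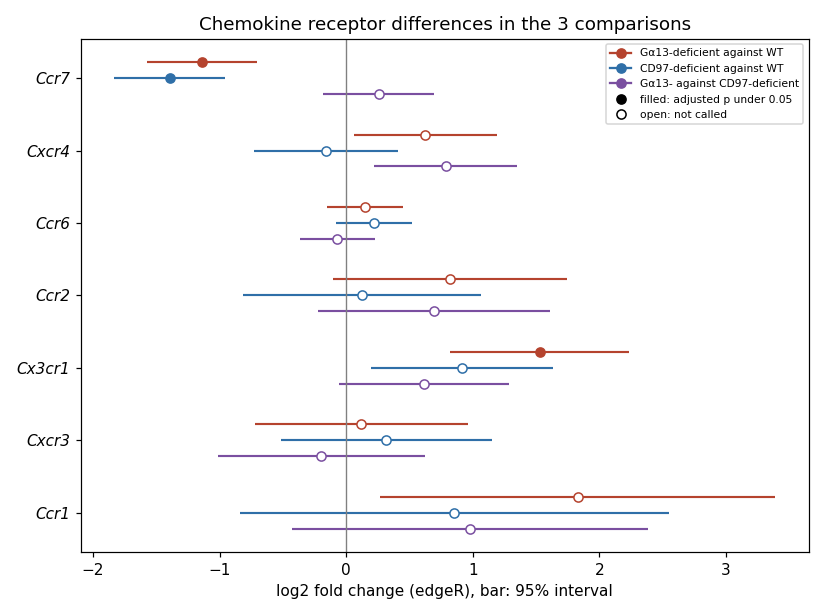
Log2 fold changes of the 7 receptors (horizontal axis, edgeR) with 95% intervals (bars) for Gα13-deficient against WT, CD97-deficient against WT and Gα13-deficient against CD97-deficient cells. Filled points passed the adjusted threshold, which are Ccr7 at -1.14 and -1.40 and Cx3cr1 at 1.53, and the widest intervals belong to the low Ccr1 counts.

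Counting receptors whose groups did not overlap gave 3 of 7 for Gα13-deficient against WT cells (Ccr7, Cx3cr1 and Ccr1), where 29.6% of all genes tested did not overlap. It gave 1 of 7 for CD97-deficient against WT cells (Ccr7), where the share over all genes was 28.2%, and 2 of 7 between the mutants (Cxcr4 and Cx3cr1), where it was 13.1%. Scaled by library totals alone, 861 genes were called higher and 523 lower in Gα13-deficient against WT cells, against 691 and 631 with TMM. The same change gave 774 higher and 331 lower in CD97-deficient cells, against 583 and 444. The receptors called and their directions were the same under both scalings.

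Set per length, the order of the receptors within a genotype can be compared. Ccr7 had 43.3, 36.0 and 94.8 TMM CPM per kb of exon in Gα13-deficient, CD97-deficient and WT cells, the highest of the 7 in each group. Cxcr4 came next with 39.4, 22.9 and 25.3 TMM CPM per kb, followed by Ccr6 with 13.4, 14.1 and 12.0. The mean level of Ccr7 was 1.10 times that of Cxcr4 in Gα13-deficient, 1.58 times in CD97-deficient and 3.75 times in WT cells. In Gα13-deficient cells the ranges of Ccr7 and Cxcr4 overlapped, and in the other groups they did not.

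Cx3cr1 and Ccr2 were next, and their order depended on the genotype. Cx3cr1 had 6.15, 4.02 and 2.14 TMM CPM per kb in Gα13-deficient, CD97-deficient and WT cells, and Ccr2 had 5.68, 3.55 and 3.26. Their ranges overlapped in each group. Cxcr3 followed with 1.80, 2.01 and 1.64 TMM CPM per kb, and its range reached those of Cx3cr1 and Ccr2 in WT cells. Ccr1 was last with 0.619, 0.307 and 0.166 TMM CPM per kb, without overlap with Cxcr3.

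**Figure D4:**
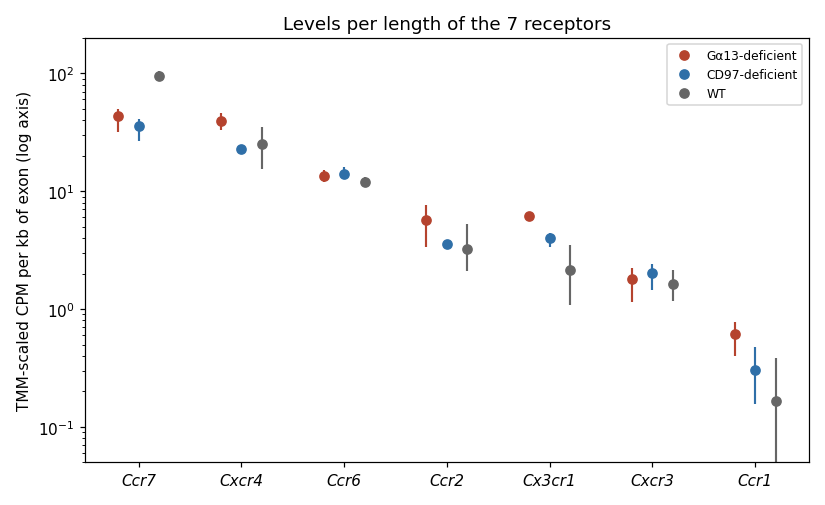
Mean TMM CPM per kb of exon (vertical axis, logarithmic) of the 7 receptors in Gα13-deficient, CD97-deficient and WT cells; bars run over the 3 libraries of a group, and that of WT Ccr1 leaves the axis at the bottom because 1 library had 0 counts. Ccr7 stands at 94.8 in WT cells and nearer to Cxcr4 in the mutants.

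Of 18 other chemokine receptors listed, 13 were in the table and 10 were tested. Xcr1, the XCL1 receptor that marks cDC1s, was the 1 called higher in each mutant, where 5.74% of all genes were called higher in Gα13-deficient and 4.84% in CD97-deficient cells, and 0 were called lower. It had 12.8, 14.6 and 15.8 TMM CPM in Gα13-deficient, 14.9, 8.20 and 23.0 in CD97-deficient and 4.04, 8.43 and 6.28 in WT replicates, and CD97-deficient replicate 2 lay within the WT range. The log2 fold changes were 1.22 ± 0.35 (SE, edgeR adjusted p = 0.0472) and 1.32 ± 0.35 (SE, edgeR adjusted p = 0.0409). The calls held in 3 and 2 of the 9 fits that left out 1 library, with adjusted p up to 0.15 and 0.148 without WT replicate 1. The 6 cDC1 markers summed to 164 to 233 CPM in Gα13-deficient, 96.8 to 185 in CD97-deficient and 77.8 to 165 in WT libraries, and their part in the Xcr1 result was not tested. The median log2 fold change of these 10 receptors was -0.02 and -0.00 in the 2 mutants.

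Ccr9 was among the 4 other receptors with the smallest p between the mutants. This CCL25 receptor of gut-homing cells and plasmacytoid dendritic cells averaged 28.2 ± 5.19 TMM CPM in Gα13-deficient cells and 17.8 ± 1.95 TMM CPM in CD97-deficient cells (SD, 3 libraries each). The ranges of the mutants did not overlap, and the log2 difference was 0.67 ± 0.18 (SE, edgeR adjusted p = 0.419). The 6 plasmacytoid dendritic cell markers, Ccr9 among them, summed to 210 to 319 CPM in Gα13-deficient and 170 to 194 in CD97-deficient libraries.

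Of 19 chemokines that bind the 7 receptors, 10 were in the table and 7 were tested. Ccl5, a ligand of CCR1, had 98.6, 94.0 and 71.3 TMM CPM in Gα13-deficient, 66.1, 88.9 and 64.9 in CD97-deficient and 191, 152 and 162 in WT replicates. Both mutants lay under WT without overlap. The log2 fold changes were -0.94 ± 0.15 (SE, edgeR adjusted p = 0.00180) and -1.20 ± 0.15 (SE, edgeR adjusted p = 0.000774). Ccl4 was also called lower in CD97-deficient cells, with 2.84, 0.440 and 1.45 TMM CPM against 17.6, 7.88 and 4.08 in WT replicates (log2 fold change -2.62 ± 0.67, SE, edgeR adjusted p = 0.0480), and that call was lost without any 1 of 7 of the 9 libraries, up to an adjusted p of 0.188 without CD97-deficient replicate 3. In all, 1 of 7 ligands was called lower in Gα13-deficient cells, where 5.24% of all genes were called lower. In CD97-deficient cells 2 of 7 were, where 3.69% of all genes were called lower. The median of the 7 ligands was 0.26 in Gα13-deficient and -1.01 in CD97-deficient cells on the log2 scale, and 0 were called higher. Ccl5 is also 1 of the maturation genes counted below.

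Downstream of the receptors, 26 of 29 listed genes of Gi and Gβγ signalling were tested. In Gα13-deficient cells 2 were called higher, where 5.74% of all genes were: Gnai2, the main leukocyte Gαi subunit (log2 fold change 0.27 ± 0.08, SE, edgeR adjusted p = 0.0319), and Grk6, a kinase that desensitizes receptors (0.52 ± 0.15, SE, edgeR adjusted p = 0.0341). With the replicate number as a block these gave edgeR adjusted p of 0.0662 and 0.0531, so neither was called. In CD97-deficient cells 2 others were called higher, where 4.84% of all genes were: the GTPase gene Rac2 (0.34 ± 0.09, SE, edgeR adjusted p = 0.0362) and the Gγ subunit gene Gng10 (0.38 ± 0.11, SE, edgeR adjusted p = 0.0438). In both comparisons 0 were called lower, and the list medians were 0.03 and 0.03. All 4 calls were lost on leaving out single libraries, WT replicate 1 among them, which gave adjusted p of 0.0907 for Gnai2, 0.108 for Grk6, 0.140 for Rac2 and 0.165 for Gng10.

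Ccr7 belongs to the genes that dendritic cells switch on as they mature, and 38 of 40 listed genes of this kind, Ccr7 included, were tested. In Gα13-deficient cells 22 were called lower and 0 higher, where 5.24% of all genes were called lower, with a median log2 fold change of -0.71. In CD97-deficient cells 15 were called lower and 0 higher, where 3.69% of all genes were called lower, with a median of -0.59. Between the mutants 0 were called, with a median of -0.16. The list was drawn up with earlier results of these libraries known, so its direction is not independent evidence. The Gα13-deficient count was 13 with the monocyte marker level as a term, where 415 of all genes were called, against 1322 in the main fit. The CD97-deficient count was 8 without CD97-deficient replicate 1, where 529 of all genes were called, against 1027 in the main fit.

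Among these genes, Cd83, a surface marker of mature dendritic cells, averaged 182 ± 19.3 TMM CPM in Gα13-deficient, 199 ± 10.4 in CD97-deficient and 325 ± 13.4 in WT cells (SD, 3 libraries a group). Its log2 fold changes were -0.84 ± 0.09 (SE, edgeR adjusted p = 0.000108) and -0.70 ± 0.09 (SE, edgeR adjusted p = 0.000590). Tnfrsf11a, which encodes the receptor RANK, fell by 0.92 and 0.84 on the log2 scale, and Traf1, a TNF receptor adaptor, fell by 0.55 and 0.52. Birc2 fell by 0.87 in each, and Tmem123 fell by 0.95 and 0.79. The costimulatory ligand gene Cd80 had log2 fold changes of -0.58 and -0.36, and its CD97-deficient call was lost without any of 4 single libraries, up to an adjusted p of 0.140 without CD97-deficient replicate 1. Cd86 was not called, at -0.41 in Gα13-deficient cells (edgeR adjusted p = 0.0635), where it lay under WT without overlap, and -0.20 in CD97-deficient cells (edgeR adjusted p = 0.379).

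Of the 10 cDC2 markers, 3 were called lower in Gα13-deficient than in WT cells, Irf4 (-0.37), Esam (-0.53) and Cd4 (-0.66), and Itgax was called higher (0.34), all as log2 fold changes, where 5.24% of all genes were called lower and 5.74% higher. In CD97-deficient cells Irf4 (-0.16), Esam (-0.43), Cd4 (-0.67) and Itgax (-0.06) did not pass, with edgeR adjusted p of 0.290, 0.113, 0.0550 and 0.704. ESAM and CD4 mark the Notch-dependent cDC2s of the spleen. The part of a shift in cDC2 makeup in the Ccr7 result was not tested.

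The genes whose levels over the 9 libraries were most like those of each receptor were taken by Pearson's r of log2 TMM CPM among 9419 or 9420 genes. For Ccr7 these were Cblb (0.985), Zbtb38 (0.980) and Icosl (0.980), and the 9 points share the genotype groups. For Cx3cr1 they were Aes (0.970), Ankrd28 (0.963) and Depdc1a (0.960), and for Cxcr4 Thap4 (0.976), Numa1 (0.967) and Dhx38 (0.960). For Ccr2 they were Lyz2 (0.958), a monocyte and macrophage marker, Clec9a (0.956), a cDC1 marker, and Fntb (0.930). Ccr6 was most like Kif1c (0.901), Cxcr3 like Toe1 (0.928) and Ccr1 like Cntln (0.985). When r was taken within groups, or Spearman's rho was used, 0 or 1 of the 3 leading genes of each receptor was the same, so these names are a description of the 9 libraries.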

How the data were processed

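RNA from splenic cDC2s was sequenced, and the authors deposited 1 table of whole-number counts per gene symbol for the 9 libraries. STAR, HTSeq, DESeq2 and the mm10 build are named without versions per the submitters' processing notes; no source used here says whether counting was stranded. No row had a total under 10. Groups and replicate numbers came from the titles, and WT columns, which are numbered 1 higher than the titles, were matched through the source names; same-numbered means by title. Same-numbered Gα13-deficient and WT libraries deviated from their group means together in 3 of 3 pairs (correlation 0.111 to 0.179, other numbers -0.120 to -0.0207), a pairing read from the data and not from the labels; replicate 2 had the female pattern in both groups.

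The fit used edgeR 4.0.16 (R 4.3.3; TMM, filterByExpr with a minimum count of 10, robust quasi-likelihood fit, Benjamini-Hochberg over 12043 genes), after a test on simulated data. The common biological coefficient of variation was 0.15, and each SE is the log2 fold change over the root of F. Floors and intervals cover counting error or the spread between libraries only. Positions and exon lengths came from GENCODE M21 (GRCm38). Alternatives were RLE size factors, library totals, no filter, DESeq2 1.42.0, the 2 groups alone, each library left out, the replicate block, terms for sex pattern and for macrophage or monocyte marker level, and libraries of 1 sex pattern. The members and lists were chosen with earlier results of these data known. From each list, the up to 4 genes with the smallest p per comparison could be named, as well as those called in both mutants and, per receptor, the 3 genes of most similar pattern. Irf4, Esam, Cd4, Itgax, H2-Ab1, S100a4, Ly6c2, Ly6c1, Ace, Treml4, Cd14, Cd86 and Cst7 were named outside this rule, after their values were seen.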

Additional observations from a re-analysis of the deposited data

Results flagged for a closer look

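The 2 mutants differed in Gna13 by a direct test. Its log2 difference, Gα13-deficient over CD97-deficient, was -1.19 ± 0.11 (SE, edgeR adjusted p = 4.05e-05), from 101 ± 11.4 against 230 ± 15 TMM CPM (SD, n = 3 each), lower in 3 of 3 libraries. This is the gene deleted in the Gα13-deficient mice, and none of the 7 receptors met a comparable criterion.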

How the results depend on the processing

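Of 402 alternative values of the receptors' log2 fold changes, 369 kept their direction and side of the threshold, 17 changed sign, 11 newly passed and 5 no longer passed; the cause of these changes was not tested except where the libraries used are fewer. Of 798 values of the other genes whose alternatives were examined, 668 kept both.

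For Gα13-deficient against WT cells, Cxcr4 passed with DESeq2 (0.63), the replicate block (0.69) and without WT replicate 1, over a leave-one-out range of 0.38 to 0.94. Cx3cr1 ranged over 1.19 to 2.12, Ccr2 over 0.54 to 1.35, Ccr1 over 1.36 to 3.09 and Cxcr3 over -0.092 to 0.39 (-0.069 without WT replicate 2). The monocyte level as a term gave -1.10 for Ccr7 and 1.30 for Cx3cr1, neither passing, with 0 receptors and 415 genes called. Male-pattern libraries gave 1.60 for Ccr2, -0.16 for Cxcr3 and 611 genes; female-pattern libraries gave -1.06 for Ccr7, -0.63 for Ccr2, 0.84 for Cx3cr1, 0 receptors and 255 genes. Leaving out 1 library gave 1 to 4 receptors and 693 (without Gα13-deficient replicate 2) to 1459 genes. Cd97 changed sign without WT replicate 1 (range -0.31 to 0.040), with the monocyte level (0.12) and with female-pattern libraries (0.45).

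For CD97-deficient against WT cells, Cx3cr1 passed with DESeq2 (0.91), the replicate block (1.03; 2 receptors in each) and without WT replicate 2, over a range of 0.56 to 1.50. Leaving out 1 library gave Ccr2 -0.095 to 0.65 (-0.079 without WT replicate 1), Cxcr4 -0.41 to 0.14, 1 to 2 receptors and 364 to 1271 genes, with 364 without CD97-deficient replicate 3, 472 without WT replicate 1 and 529 without CD97-deficient replicate 1. Sex pattern as a term gave 222 genes, and the macrophage level gave 543 genes and -0.037 for Ccr2. Female-pattern libraries gave 233 genes, -0.28 for Ccr1 and -0.56 for Ccr2; no CD97-deficient library had a male pattern, so that alternative gave no value.

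For Gα13-deficient against CD97-deficient cells, Cxcr4 passed with these groups alone (0.78) and with the replicate block (0.77), with 1 receptor and 53 or 73 genes called. DESeq2 called 54 genes, no filter 11, the macrophage level 14, female-pattern libraries 24 and leaving out 1 library 4 to 25. Ccr6 was 0.0027 and 0.044 without Gα13-deficient replicate 1 or CD97-deficient replicate 2, within a range of -0.16 to 0.044, 0.015 with sex pattern and 0.0067 with monocyte level as a term and 0.12 in female-pattern libraries, where Ccr2 was -0.064. Cxcr3 ranged over -0.41 to 0.073.

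Same-numbered libraries did not deviate together for CD97-deficient and WT (correlation -0.301 to 0.0594) or the mutants (-0.0731 to 0.0112). There the samples share only a number, and 0 and 1 of the libraries correlated best with their own number. For Gα13-deficient and WT the block changed the calls of Cxcr4, Gnai2 and Grk6 only, among the named genes whose alternatives were examined. The effect of the block on the calls of Irf4, Esam, Cd4, Itgax and S100a4 was not examined. For CD97-deficient and WT the block gave Xcr1 an adjusted p of 0.135. Depth limits Ccr1 and Cxcr3, with 0 to 35 counts a library.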
